A study of Mus musculus with 8 samples.

Results

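A set of 10 genes that restrain signaling through the extracellular signal-regulated kinase (ERK) pathway, or report its output, was followed in primary lung fibroblasts (pFBs). These were the MAPK phosphatases Dusp1, Dusp4, Dusp5 and Dusp6, the Sprouty genes Spry1, Spry2 and Spry4, the Sprouty-related genes Spred1 and Spred2, and the ETS factor gene Etv5. The members were the entries of the gene count table that carried these 10 symbols, 10 of 54532 entries in all, and each symbol stood on 1 entry. Bulk RNA-seq had been run on 4 wild type (WT) and 4 homozygous (HOMO) libraries. The WT libraries came from female mice labelled C57/black without the transgene, and the HOMO libraries from female mice of the same label with human IGFBP5 (hIGFBP5) knocked in on both alleles by CRISPR/Cas9, under the Ef1a1 promoter, which is active in most cell types. IGFBP5 is a secreted binding protein of insulin-like growth factors. The pFBs were kept in complete media with no treatment, and neither an age nor the number of mice behind the libraries was given in the sources used here. The comparison asked how the pFBs of HOMO mice differed from those of WT mice in gene expression.

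ERK signaling runs from receptor tyrosine kinases through Ras, Raf and MEK to ERK. Active ERK enters the nucleus and switches on, among other genes, those of its own inhibitors, so the transcripts of the inhibitors are often read as a record of recent ERK output. The DUSP proteins remove phosphate from MAP kinases, while Sprouty and Spred proteins act upstream at the level of Ras and Raf. In cultured fibroblasts the pathway responds to serum growth factors and to attachment, and several of its targets are immediate early genes that rise and fall within a short time.

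None of the 10 genes was a differentially expressed gene (DEG), meaning an adjusted p under 0.05 in edgeR's quasi-likelihood test together with an absolute log2 fold change above 0.6. That rule called 1716 of 14150 genes tested, or 12.1% (841 or 5.94% higher and 875 or 6.18% lower in HOMO). DESeq2, which called 16.5% of all genes, and limma-voom, which called 25.3%, also called 0 of the 10, and so did edgeR without WT3 and WT4, where 20.9% of all genes passed. Of the 10 genes, 1 had an unadjusted p under 0.05 in edgeR, 1 in DESeq2 and 2 in limma-voom. Over all genes tested the share with an unadjusted p under 0.05 was 32.3% in edgeR and 55.2% in limma-voom. In DESeq2 it was at most 31.5%, because its 5555 such genes may include some left without an adjusted p. Dusp1 had the largest difference, a level that was lower in every HOMO library than in every WT library, but its spread between libraries was wide. For the 9 other genes the levels of the 2 genotypes overlapped, and their log2 fold changes lay between -0.11 and 0.28. The median log2 fold change of the 10 genes was 0.08, against -0.04 over all genes tested, and the median absolute value was 0.12, against 0.41. Read as a difference of levels, a HOMO library can carry less of a transcript because each cell held less of it or because fewer cells of an expressing kind were present, and bulk libraries cannot tell these apart.

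Total counts ranged from 17236521 to 29028769 in WT and from 19009027 to 31987790 in HOMO. The libraries formed 3 near-identical pairs, namely WT1 with WT2, HOMO1 with HOMO2 and HOMO3 with HOMO4. The biological coefficient of variation was 4.71% to 7.65% within these pairs and 30.0% to 56.5% in the 9 remaining pairings inside a genotype. They differed by more than counting noise and were kept as 8 libraries, so p-values measure the spread between these libraries, which may in part be technical. Counted as 5 units after summing each pair, 0 of 16130 genes passed (2057 had an unadjusted p under 0.05) and 0 of the 10 genes did. All 8 libraries carried fibroblast markers. The 9 genes summed to 12937 to 16618 CPM in WT and 14002 to 24381 CPM in HOMO (CPM, counts scaled to a common library size). Of the 9, 2 were DEGs, Pdgfrb and Vim, with lower levels in HOMO. The others were no DEGs and were mixed in direction. Thy1, Dcn and Lum had log2 fold changes of -1.62, -0.59 and -0.10. Col1a1, Col1a2, Col3a1 and Pdgfra had 0.82, 0.66, 0.63 and 0.12. The DEG status given here is from edgeR, while the paper, with DESeq2 at the same thresholds, counted Col1a1 and Col1a2 as upregulated. Summed levels of 8 macrophage and leukocyte markers were 2025 CPM in WT3 and 1223 CPM in WT4, 121 and 153 CPM in WT1 and WT2, and 26.2 to 175 CPM in HOMO, with none of the 8 a DEG and none at 3 counts or fewer throughout. Summed levels of 8 proliferation markers were 1161 and 1029 CPM in WT1 and WT2, 849.9 and 774 CPM in HOMO3 and HOMO4, and 155, 64.5, 164 and 152 CPM in WT3, WT4, HOMO1 and HOMO2. Lung epithelial markers (7 genes) summed to at most 14.4 CPM and endothelial markers (6 genes) to at most 8.09 CPM, with Krt5, Nkx2-1 and Cldn5 at 3 counts or fewer in every library. The epithelial sums were at most 0.542 CPM in WT and at least 1.34 CPM in HOMO, and Cdh1, the 1 epithelial marker tested, was a DEG with a higher level in HOMO. The 6 mesothelial markers summed to 51.8 to 158 CPM in WT and 92.7 to 131 CPM in HOMO. Of the 5 tested, Wt1 was a DEG with a higher level in HOMO (log2 fold change 3.36). The rest were no DEGs, with Krt19 at -3.06, Msln at -0.52, Upk3b at 0.09 and Lrrn4 at 0.22. The table names mouse genes, and the human transgene was not analysed here. The mouse gene Igfbp5 stood at 409 CPM in WT3 and at 1.07 to 9.65 CPM in the 7 other libraries, which checks no label. The paper describes mouse Igfbp5 as undetectable in the pFBs of WT and HOMO mice alike, which differs from these counts.

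Promoter windows of RefSeq (GRCm38.p6), the 250 bases before a start site, were found for 8 of the 10 genes, and Dusp4 and Spry4 were without an entry. Windows were searched on both strands for the cyclic AMP response element TGACGTCA, the E-box CACGTG, the AP-1 site TGANTCA, the ETS site CCGGAAGT and the CArG box, the site of serum response factor. Of the 8 genes, Dusp1 and Dusp5 had matches. Both are shown, and they were the only genes with matches. Dusp1 had the largest difference between the genotypes. Dusp5 rose and fell with the libraries rather than with the genotype, and so did Dusp6 and Spry2, as given further on. Capitals mark the matches, and both are written 5′ to 3′ in the direction of transcription, Dusp1 from the minus strand at chr17:26508473-26508722 and Dusp5 from the plus strand at chr19:53528895-53529144.
Dusp1: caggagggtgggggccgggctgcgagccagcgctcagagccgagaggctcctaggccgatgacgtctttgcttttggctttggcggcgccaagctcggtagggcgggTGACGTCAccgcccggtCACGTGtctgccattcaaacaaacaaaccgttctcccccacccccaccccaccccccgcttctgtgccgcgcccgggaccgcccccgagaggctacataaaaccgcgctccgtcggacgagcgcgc
Dusp5: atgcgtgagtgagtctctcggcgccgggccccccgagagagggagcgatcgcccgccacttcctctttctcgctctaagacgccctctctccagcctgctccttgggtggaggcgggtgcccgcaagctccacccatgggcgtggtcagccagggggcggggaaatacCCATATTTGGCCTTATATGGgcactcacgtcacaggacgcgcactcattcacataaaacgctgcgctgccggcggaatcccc
In Dusp1 the element TGACGTCA stood at bases -143 to -136 before the start and the E-box CACGTG at -126 to -121. In Dusp5 a pair of adjoining CArG boxes, CCATATTTGG at -82 to -73 and CCTTATATGG at -72 to -63, was found. Among all 32851 windows of the same length, 1.55% held the TGACGTCA element, 6.02% the E-box and 1.47% a CArG box. The AP-1 letters were in 6.75% of all windows and the ETS letters in 2.88%, and in 0 windows of the 8 genes. Positions count from the RefSeq start, which differs from the ends of the gene spans given below, taken from GENCODE. The Dusp1 window lies inside its span, and the Dusp5 window ends inside its span. A match describes letters in a window and is no measure of binding, and its absence from this window says nothing about the factor.

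Dusp1 encodes a nuclear phosphatase of ERK, p38 and JNK and is a classic immediate early gene. It lies on chromosome 17 (GRCm38 chr17:26505590-26562128, minus strand). Its levels were 90.7, 87.4, 185 and 118 CPM in WT1 to WT4 and 17.3, 23.4, 83.3 and 74.6 CPM in HOMO1 to HOMO4. The highest HOMO library, HOMO3, was just under the lowest WT library, WT2, so the genotypes did not overlap, as was the case for 27.3% of all genes tested. The means were 120.4 ± 45.4 CPM in WT and 49.7 ± 34.1 CPM in HOMO (SD, n = 4 each). The log2 fold change was -1.28 (SE 0.52, 95% interval -2.46 to -0.09), with an adjusted p of 0.131 in edgeR. DESeq2 gave -1.28 with an adjusted p of 0.0598. HOMO1 and HOMO2 lay far below HOMO3 and HOMO4, a range of 2.26 on the log2 scale within HOMO, where the median gene had 0.43. Summed levels of 5 smooth muscle markers, none of them a DEG and none at 3 counts or fewer throughout, moved alongside within HOMO. They were 199 and 206 CPM in HOMO1 and HOMO2 and 1453 and 1429 CPM in HOMO3 and HOMO4. In WT1 to WT4 they were 831, 772, 2713 and 866 CPM, so HOMO3 and HOMO4 lay above WT1, WT2 and WT4, unlike Dusp1. Acta2 made up most of these sums, with 1363 CPM in HOMO3 and 2418 CPM in WT3. The leukocyte markers were highest in WT3 and WT4, the libraries with the most Dusp1. Other marker sums were also lower in HOMO1 and HOMO2 than in HOMO3 and HOMO4. Leukocyte sums were 26.7 and 26.2 against 154 and 175 CPM. Proliferation sums were 164 and 152 against 849.9 and 774 CPM, and fibroblast sums 14639 and 14002 against 24381 and 24327 CPM. Endothelial sums had this order too, epithelial sums were mixed and mesothelial sums were higher in HOMO1 and HOMO2. Such an order is therefore not particular to smooth muscle markers. The part of any marker list in the Dusp1 difference was not tested. Without WT3 and WT4, left out after the data were seen, the log2 fold change was -0.85 (SE 0.63, adjusted p 0.330 in edgeR). Dusp1 shares 0.332% of its exon bases with Ergic1 on the opposite strand.

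**Figure D1:**
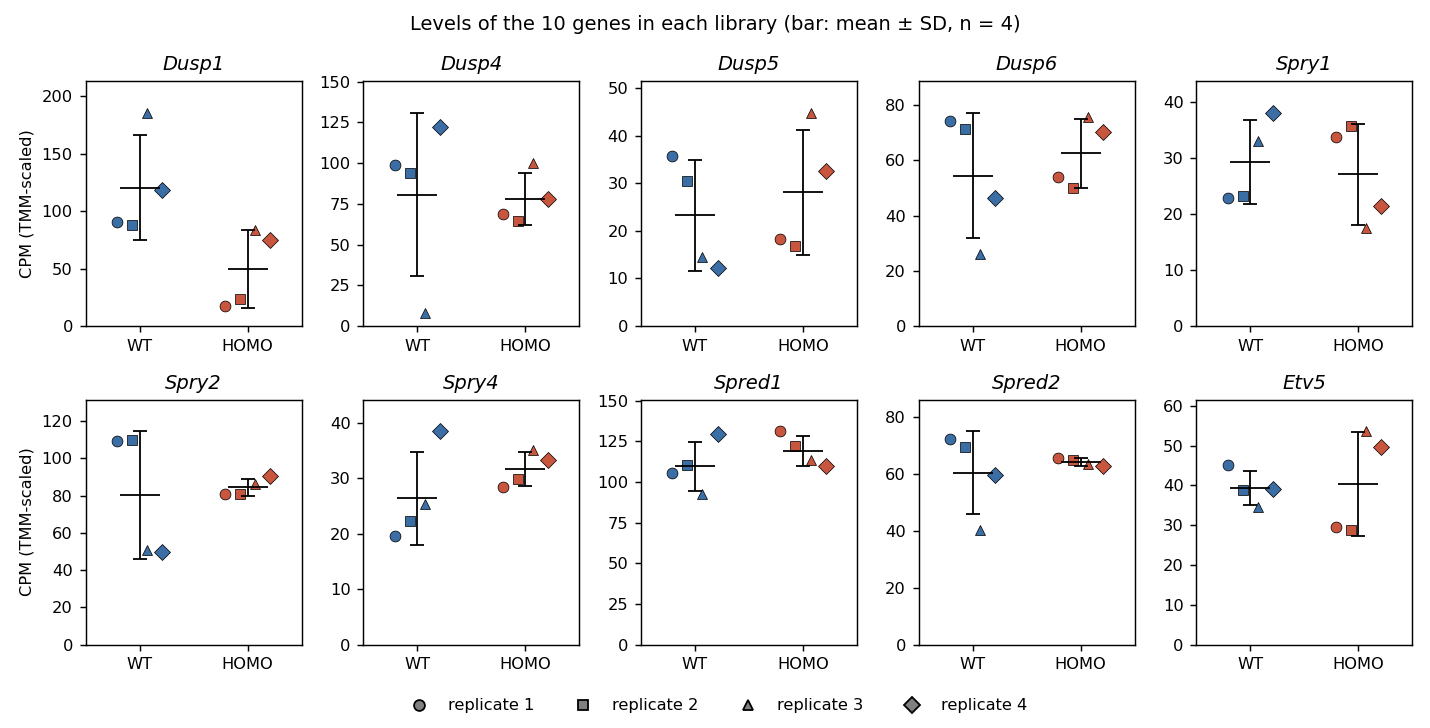
Levels of the 10 genes in CPM on TMM-scaled library sizes (y axis, from 0 and scaled per gene) in the WT and HOMO libraries (x axis), with a marker shape per replicate number and bars for the mean ± SD of 4 libraries. In Dusp1 all 4 HOMO libraries lie under all 4 WT libraries, and in Dusp4 the WT3 library lies at 7.80 CPM against 94.2 to 122 CPM in the other WT libraries.

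Dusp4 encodes another nuclear, ERK-inducible phosphatase and lies on chromosome 8 (GRCm38 chr8:34807297-34819894, plus strand). Its levels were 98.5, 94.2, 7.80 and 122 CPM in WT1 to WT4 and 68.8, 64.4, 100.3 and 77.8 CPM in HOMO1 to HOMO4. WT3 stood alone with 136 counts, against 1751 to 3154 counts in the other WT libraries, and the highest WT level was 15.6 times the lowest. With WT3 in, the log2 fold change was -0.05 (SE 0.62, 95% interval -1.47 to 1.37, adjusted p 0.964 in edgeR). Without WT3 it was -0.43 (SE 0.18, adjusted p 0.123 in edgeR), so the value rested on that library. Genes of chromosome 8 as a whole were shifted, with a median log2 fold change of 0.38, and with each library offset by its chromosome medians Dusp4 stood at -0.44 (SE 0.63, adjusted p 0.667 in edgeR).

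Dusp5 encodes a nuclear phosphatase specific to ERK, on chromosome 19 (GRCm38 chr19:53529109-53542431, plus strand). Its levels were 35.8, 30.4, 14.5 and 12.3 CPM in WT1 to WT4 and 18.4, 16.9, 44.8 and 32.6 CPM in HOMO1 to HOMO4. Both genotypes thus held a pair of high and a pair of low libraries, and the highest level of the 8 was in HOMO3. The log2 fold change was 0.28 (SE 0.43, 95% interval -0.71 to 1.26, adjusted p 0.698 in edgeR). A gene on the other strand overlaps 22.1% of the exon bases of Dusp5, and whether the counting used strand is not given in the sources used here.

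Dusp6 encodes the cytoplasmic ERK phosphatase, whose transcript is widely used as a readout of ERK activity. Its levels on chromosome 10 were 74.3, 71.3, 26.1 and 46.3 CPM in WT1 to WT4 and 54.1, 49.9, 75.8 and 70.2 CPM in HOMO1 to HOMO4. The lowest library was WT3, and the remaining levels of the genotypes interleaved. The means were 54.5 ± 22.7 CPM in WT and 62.5 ± 12.5 CPM in HOMO (SD, n = 4 each), with a log2 fold change of 0.20 (SE 0.32, 95% interval -0.52 to 0.92, adjusted p 0.702 in edgeR).

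Of the Sprouty genes, which encode membrane-associated inhibitors of receptor tyrosine kinase signaling, Spry2 was the most abundant for its length. Spry2, on chromosome 14, stood at 109.7, 110.2, 51.1 and 49.6 CPM in WT1 to WT4 and at 80.9, 81.0, 86.1 and 90.4 CPM in HOMO1 to HOMO4. All 4 HOMO libraries lay in the gap between the 2 high and the 2 low WT libraries. The log2 fold change was accordingly near 0 at 0.08 (SE 0.28, 95% interval -0.57 to 0.73, adjusted p 0.878 in edgeR). Its sign turned with the WT libraries used: without WT3 and WT4 it was -0.38 (SE 0.08, adjusted p 0.0138 in edgeR), which is under the fold change threshold.

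Spry1, on chromosome 3, had the opposite arrangement, at 22.8, 23.2, 33.0 and 38.1 CPM in WT1 to WT4 and 33.7, 35.8, 17.5 and 21.4 CPM in HOMO1 to HOMO4. HOMO3 and HOMO4 were lower than HOMO1 and HOMO2, and WT1 and WT2 lower than WT3 and WT4. The log2 fold change was -0.11 (SE 0.28, 95% interval -0.74 to 0.52, adjusted p 0.818 in edgeR). Spry1 shares 24.4% of its exon bases with Gm42922 on the opposite strand, an entry with at most 8 counts in any library.

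Spry4, on chromosome 18, was the least abundant member for its length, at 19.5, 22.2, 25.2 and 38.4 CPM in WT1 to WT4 and 28.3, 29.9, 35.1 and 33.3 CPM in HOMO1 to HOMO4. The HOMO libraries lay above 3 of the 4 WT libraries and below WT4. The log2 fold change was 0.26 (SE 0.22, 95% interval -0.23 to 0.76, adjusted p 0.437 in edgeR). Without WT4 it was 0.50 (adjusted p 0.0593 in edgeR), and limma-voom with sample weights gave 0.56 (adjusted p 0.00217). Without WT3 and WT4 it was 0.599 (SE 0.13, adjusted p 0.0157 in edgeR), just short of the fold change threshold, which the other 2 values also missed. Genes of chromosome 18 had a median log2 fold change of -0.31, and against that shift Spry4 stood at 0.49 (SE 0.19, adjusted p 0.130 in edgeR).

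Spred1 and Spred2 encode Sprouty-related inhibitors that bring neurofibromin to Ras. Spred1, on chromosome 2, stood at 105.6, 110.6, 92.8 and 129 CPM in WT1 to WT4 and at 131, 122, 113 and 109.9 CPM in HOMO1 to HOMO4. The genotypes overlapped over most of this range. With the narrowest interval of the 10 genes, its log2 fold change was 0.12 (SE 0.13, 95% interval -0.19 to 0.43, adjusted p 0.576 in edgeR). With the 8 libraries taken as separate, that interval leaves out the threshold of 0.6 on either side. Spred2, on chromosome 11, stood at 72.5, 69.5, 40.5 and 59.5 CPM in WT1 to WT4 and at 65.7, 64.8, 63.7 and 62.8 CPM in HOMO1 to HOMO4. Within HOMO it was the steadiest of the 10 genes, with a range of 0.07 on the log2 scale, while WT3 alone lay far below. The log2 fold change was 0.09 (SE 0.18, 95% interval -0.33 to 0.50, adjusted p 0.778 in edgeR), and this interval also leaves out 0.6 on either side. Both intervals count near-identical libraries as separate. With those libraries summed, Spred1 stood at 0.12 with a wider SE of 0.26 and Spred2 at 0.18 with an SE of 0.30. Neither interval therefore shows that a change of 0.6 is absent.

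Etv5 encodes a PEA3-type ETS factor that is induced downstream of ERK. Its levels on chromosome 16 were 45.0, 38.9, 34.4 and 39.2 CPM in WT1 to WT4 and 29.6, 28.8, 53.5 and 49.7 CPM in HOMO1 to HOMO4. The WT libraries lay between the low HOMO pair and the high HOMO pair. The means were 39.4 ± 4.34 CPM and 40.4 ± 13.0 CPM (SD, n = 4 each), with a log2 fold change of 0.04 (SE 0.23, 95% interval -0.49 to 0.56, adjusted p 0.933 in edgeR).

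**Figure D2:**
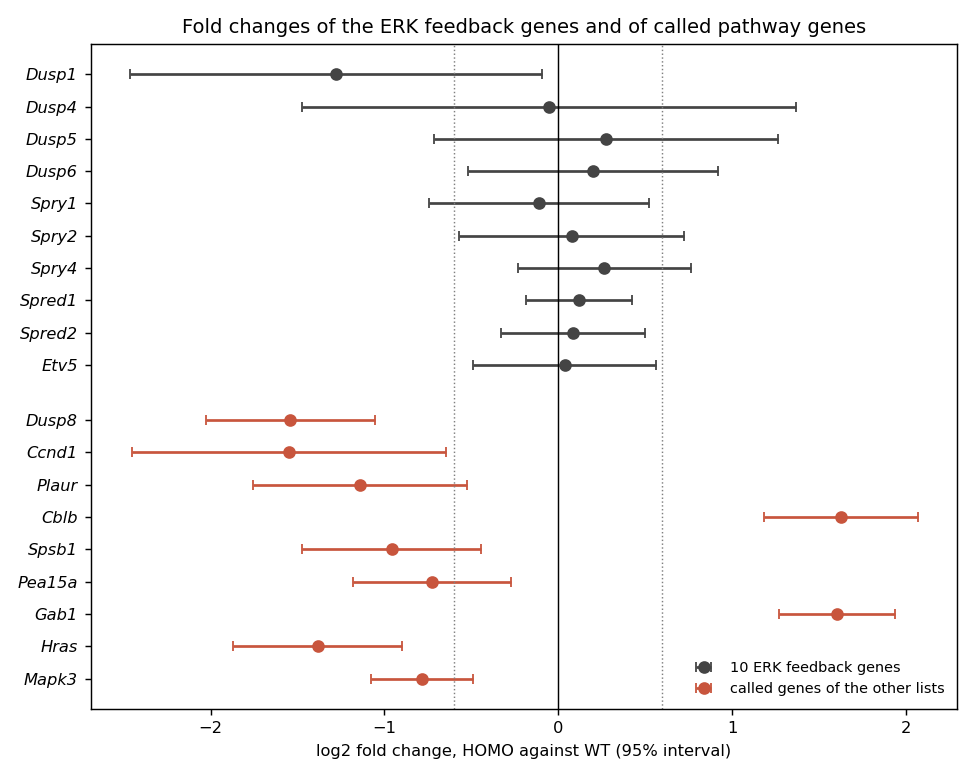
Log2 fold change of HOMO over WT (x axis) with its 95% interval from edgeR for the 10 genes (grey) and the 9 called genes of the further pathway lists described below (red), a solid line marking 0 and dotted lines the 0.6 threshold in either direction. The interval of Dusp1 (-2.46 to -0.09) is the only one of the 10 that leaves out 0, and that of Dusp4 (-1.47 to 1.37) is the widest.

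Compared per length of exon, Spry2 was highest in both genotypes, at 38.4 ± 16.5 CPM per kb in WT and 40.5 ± 2.20 CPM per kb in HOMO (SD, n = 4 each). In WT it was followed by Dusp1 at 36.3 ± 13.7 and Dusp4 at 29.4 ± 18.3 CPM per kb, neighbours whose SDs overlapped. Dusp6 at 17.4 ± 7.25, Spred1 at 16.1 ± 2.23 and Spred2 at 13.1 ± 3.13 CPM per kb formed a middle range within their SDs. Spry1, Etv5 and Dusp5 lay at 10.1 ± 2.59, 9.60 ± 1.06 and 9.41 ± 4.71 CPM per kb, and Spry4 was last at 5.54 ± 1.76 CPM per kb. In HOMO the order was the same at its top and bottom ends, with Dusp4 at 28.4 ± 5.83 CPM per kb in the place behind Spry2 and Dusp1 at 15.0 ± 10.3 CPM per kb, between Spred1 at 17.6 ± 1.39 and Spred2 at 13.9 ± 0.277 CPM per kb.

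The levels varied widely within each genotype. The median range within WT was 1.03 on the log2 scale for the 10 genes, against 0.97 over all genes tested, and within HOMO 0.62, against 0.43. Dusp5, Dusp6 and Spry2 were each higher in WT1, WT2, HOMO3 and HOMO4 than in the other 4 libraries, and Spry1 was lower in exactly those 4. The same 4 libraries had the high proliferation marker sums given above (774 to 1161 CPM, against 64.5 to 164 CPM in the rest), with none of the 8 markers a DEG and none at 3 counts or fewer throughout. The part of proliferation in these levels was not tested. Within HOMO, 7 of the 10 genes (Dusp1, Dusp4, Dusp5, Dusp6, Spry2, Spry4 and Etv5) were each higher in both HOMO3 and HOMO4 than in HOMO1 and HOMO2, and Spry1, Spred1 and Spred2 were lower in both. WT3 was the lowest WT library for 5 of the 10 genes (Dusp4, Dusp6, Spred1, Spred2 and Etv5), and the lowest of all 8 for 4 of them. The share of all genes tested with each of these orders was not counted. WT1 with WT2, HOMO1 with HOMO2 and HOMO3 with HOMO4 were near-identical, so libraries of a pair tend to lie together. These counts can therefore not be read as a trait of the 10 genes.

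**Figure D3:**
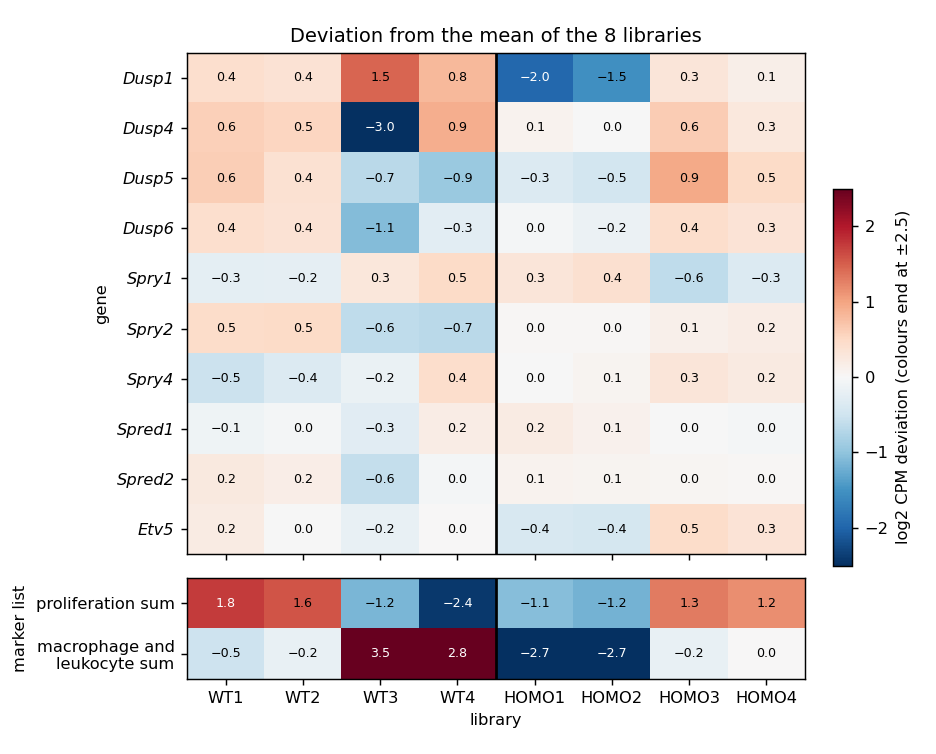
Deviation of each library's log2 CPM from the gene's mean over the 8 libraries, with a row per gene and a column per library, the value printed in each cell, and the log2 summed level of the proliferation and leukocyte markers under them in the same way. Dusp5, Dusp6 and Spry2 lie higher in WT1, WT2, HOMO3 and HOMO4 than in the other 4 libraries, Spry1 lies lower there, and the cell of Dusp4 in WT3 has the lowest value.

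The other genes of the pathway were counted in 5 lists against the same 12.1% background. Of the 5 other MAPK phosphatase genes tested, 1 passed, lower in HOMO, and 1 had an unadjusted p under 0.05 in edgeR. The list's median log2 fold change was 0.11. The gene that passed was Dusp8, which encodes a phosphatase acting chiefly on JNK and p38. Dusp8 stood at 17.3, 15.4, 13.4 and 19.7 CPM in WT1 to WT4 and at 4.41, 5.36, 5.83 and 7.02 CPM in HOMO1 to HOMO4. All HOMO libraries were well under all WT libraries, with a log2 fold change of -1.54 (SE 0.21, adjusted p 0.00501 in edgeR). Dusp2 had too few counts to be tested. Of the 4 other Sprouty, Spred and PEA3 genes, 0 passed and 0 had an unadjusted p under 0.05 in edgeR, with a list median of 0.16. The 2 with the smallest p in that list were Spry3, at 0.28 (SE 0.40, adjusted p 0.663 in edgeR), and Spred3, at 0.08 (SE 0.21, adjusted p 0.831 in edgeR).

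Of 14 other ERK-induced genes tested, 2 passed, both lower in HOMO, and 4 had an unadjusted p under 0.05, with a list median of -0.09. Areg was at 3 counts or fewer in every library and was not tested. Ccnd1, which encodes the cyclin that drives cells into the cycle, stood at 409, 357, 148 and 283 CPM in WT1 to WT4 and at 68.2, 58.5, 144 and 139 CPM in HOMO1 to HOMO4. The highest HOMO library was just under WT3, and the log2 fold change was -1.55 (SE 0.40, adjusted p 0.0376 in edgeR). Within either genotype it was higher in the libraries with the high proliferation marker sums, whose part in the result was not tested. Ccnd1 shares 23.4% of its exon bases with LTO1 on the opposite strand. Plaur, the urokinase receptor gene, had means of 54.2 ± 12.1 CPM in WT and 24.6 ± 8.63 CPM in HOMO (SD, n = 4 each), and its log2 fold change was -1.14 (SE 0.27, adjusted p 0.0298 in edgeR). The list's largest positive value, named after it was seen, was that of the immediate early gene Egr1, at 25.2 to 149.7 CPM in WT and 123 to 450.0 CPM in HOMO. The ranges overlapped, and the log2 fold change of 1.73 (SE 0.64) had an adjusted p of 0.103 in edgeR. The paper, with DESeq2 at the same thresholds, counted Egr1 as upregulated.

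Of 12 other genes listed as regulators of receptor to ERK signaling, not all of them feedback inhibitors, 1 passed with a higher and 2 with a lower level in HOMO. Of the 12, 6 had an unadjusted p under 0.05 in edgeR, against 32.3% of all genes tested. In 6 the genotypes did not overlap, against 27.3% of all genes tested. The list median was -0.28. Cblb, a ubiquitin ligase gene, was higher in every HOMO library than in every WT library, at 52.1 ± 2.87 CPM in HOMO and 16.9 ± 4.11 CPM in WT (SD, n = 4 each). Its log2 fold change was 1.63 (SE 0.19, adjusted p 0.00299 in edgeR). Spsb1, a SOCS box adaptor gene, was at 61.3 ± 19.2 and 31.6 ± 5.27 CPM, a log2 fold change of -0.96 (SE 0.23, adjusted p 0.0296 in edgeR). Pea15a, whose protein holds ERK in the cytoplasm, was at 594 ± 159.6 and 359 ± 15.3 CPM, a log2 fold change of -0.73 (SE 0.20, adjusted p 0.0460 in edgeR). Its WT levels were 447 and 466 CPM in WT1 and WT2 and 715 and 748 CPM in WT3 and WT4, the libraries with the high leukocyte marker sums, whose part was not tested. Without WT3 and WT4 its log2 fold change was -0.35 (adjusted p 0.0178 in edgeR) and with limma-voom -0.36 (adjusted p 0.00602), both under the fold change threshold.

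Of 21 genes of the Ras to ERK cascade itself, 1 passed with a higher and 2 with a lower level in HOMO. In edgeR 5 had an unadjusted p under 0.05, and the list median was 0.03. Gab1, a docking protein gene, was at 42.1 ± 3.87 CPM in WT and rose to 128 ± 19.6 CPM in HOMO (SD, n = 4 each), and its log2 fold change was 1.60 (SE 0.15, adjusted p 0.00111 in edgeR). Hras fell from 88.7 ± 22.6 to 34.0 ± 5.77 CPM, a log2 fold change of -1.38 (SE 0.21, adjusted p 0.00742 in edgeR). Mapk3, which encodes ERK1, fell from 226 ± 18.3 to 131 ± 14.3 CPM, a log2 fold change of -0.79 (SE 0.13, adjusted p 0.00855 in edgeR).

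Of these 9 called genes, 5 (Hras, Mapk3, Ccnd1, Plaur and Dusp8) lie on chromosome 7, as do 6 of the 56 genes tested in the 5 lists and 1047 of all 14150 genes tested. There the median log2 fold change of the genes tested was -0.29, and Gab1 lies on chromosome 8, where it was 0.38. With each library offset by its chromosome medians, 6 of the 9 were still called. Gab1 then stood at 1.20 (SE 0.13, adjusted p 0.00221), Hras at -1.16 (SE 0.17, adjusted p 0.00628) and Dusp8 at -1.35 (SE 0.23, adjusted p 0.0106 in edgeR), while Mapk3 at -0.57, Ccnd1 at -1.40 and Plaur at -0.95 no longer passed. Summing the near-identical libraries left 0 of the 9 called. Calls of Dusp8, Cblb, Gab1 and Hras held under the 20 other alternatives. Those of Ccnd1, Plaur, Spsb1 and Pea15a were each lost under several single-library omissions, among them leaving out HOMO1, HOMO2 or HOMO4.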

How the data were processed

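The authors cleaned the reads (fastp), mapped them to mm10 (STAR) and counted them per gene (featureCounts), and the deposited table holds those raw counts for 4 WT and 4 HOMO libraries. Versions, annotation and strand setting are not given in the sources used here. The file's name says that an outlier was taken out, and what was removed is not stated there. Groups and replicate numbers came from the sample titles.

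Of 54532 entries, 27324 had at least 1 count and 100 symbols stood on several entries. GENCODE M21 (GRCm38) gave positions, exon lengths and overlaps for 53954. Counts were analysed in R 4.3.3 with edgeR 4.0.16 (TMM, filterByExpr by genotype, quasi-likelihood F test, Benjamini-Hochberg over 14150 genes), limma 3.58.1 and DESeq2 1.42.0, and tested on simulated data. Genes counted as DEGs when the adjusted p was under 0.05 and log2 fold change exceeded 0.6 in size. Dividing that size by the root of the F statistic gave the SE. Levels were CPM after TMM scaling, with a prior count of 2 before logs. Totals of 17236521 to 31987790 counts per library set the precision, and 3 counts were taken as the floor. Named were the 10 genes, every DEG of 5 further pathway lists, and for a list without a DEG the 2 genes with the smallest p. The members and lists were chosen with earlier results of these data known. Alternatives were other normalizations, filters, tools and thresholds, the replicate number as a block, summed near-identical libraries, chromosome offsets and omission of each library. Leaving out WT3 and WT4 together was added after the data were seen. Plots were drawn in Python 3.11.15 with matplotlib 3.10.9, from tables written by pandas 2.3.3.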

Additional observations from a re-analysis of the deposited data

Results flagged for a closer look

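Dusp4 had an outlying level in WT3, at 2.98 on the log2 CPM scale where the rest of WT had 6.56 to 6.93. Its gap to the nearest WT library was 0.905 of the group's whole range, above Dixon's 95% critical value for 4 samples. Of 20 groups screened, the 10 genes in each genotype, this was the 1 so marked. Chance marks about 1 in 20 groups of independent values. That rate need not hold here, because both genotypes contain near-identical libraries.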

How the results depend on the processing

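The number of DEGs, 1716, became 2913 with DESeq2, 3573 with limma-voom and sample weights, 947 with the replicate number as a block, 398 at an adjusted p under 0.01, 3117 without WT3 and WT4 (chosen after seeing the data) and 0 with near-identical libraries summed, where fewer units entered the fit; the cause of the others was not tested. Leaving out each library in turn gave 507 to 2192, with 507 without HOMO1, 512 without HOMO2, 1040 without HOMO3 and 980 without HOMO4. The number of the 10 genes called stayed at 0 with each library left out, and was 1 with the replicate block, Dusp1 at -1.52 (adjusted p 0.0499 in edgeR). Same-numbered WT and HOMO libraries did not deviate together (r from -0.12 to 0.01 across genes), so no pairing by number was seen. The near-identical libraries shape these deviations and could hide a pairing. The block also ended the calls of Ccnd1 and Pea15a.

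The sign of Dusp1, Spry4 and Spred1 held under every alternative, Dusp1 between -1.65 and -0.85 with adjusted p from 0.0499 to 0.405 in edgeR or the other tools, and so did that of the 9 called pathway genes. Signs turned elsewhere. With the block, Dusp4 was 0.242 and Etv5 -0.0145, and with libraries summed Dusp4 was 0.0451. With limma-voom, Dusp5 was -0.0982, Dusp6 -0.124, Spry1 0.0426, Spry2 -0.330 (adjusted p 0.0371), Spred2 -0.125, Spry3 -0.255 and Spred3 -0.0886. With chromosome offsets, Spry1 was 0.0681 and Etv5 -0.160. Without WT3 and WT4, Dusp5 was -0.238, Dusp6 -0.221, Spry1 0.238, Spry2 -0.379 (adjusted p 0.0138), Spred2 -0.145, Etv5 -0.0560, Spry3 -0.235 and Spred3 -0.168. With each library left out in turn, Dusp4 ranged from -0.43 to 0.22, Dusp5 from -0.0397 to 0.56, Dusp6 from -0.0342 to 0.38, Spry1 from -0.27 to 0.0524, Spry2 from -0.0939 to 0.27, Spred2 from -0.0662 to 0.18, Etv5 from -0.13 to 0.17 and Spred3 from -0.0815 to 0.203. The cause of these turns was not tested. Every library held at least 136 counts of each of the 10 genes.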
